A study of Mus musculus with 2 samples.

Results

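A set of 10 textbook target genes of NF-kB was followed on Illumina bead arrays of mouse hematopoietic stem and progenitor cells. They comprised the effector genes Tnfaip2, Sod2 and Icam1, the survival and stress genes Birc2, Birc3 and Gadd45b, the feedback inhibitor genes Tnfaip3 and Tnip1, and the surface receptor genes Cd40 and Cd83. All probes that the platform annotation pairs with one of these symbols alone were taken. This gave 23 probes for the 10 genes, of 34885 probes with 1 symbol and 19057 genes on the array. The study held 1 control sample and 1 sample whose genotype is written CA/CA, both Flt3-low cells of the LSK gate (positive for Sca1 and c-Kit and negative for lineage markers). CA/CA is read here as the genotype of the transgenic mice named in the title, whose stem cells carry an always-active form of IKK2. The promoter or Cre line that drives the transgene, the age and sex of the mice, and how many mice gave each sample are not stated in the labels used here. With 1 array per genotype no value has a replicate error and nothing was tested, so each difference below describes 2 samples.

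NF-kB dimers rest in the cytoplasm bound to IkB proteins. IKK2, encoded by Ikbkb, phosphorylates IkB, which is then degraded, and the freed dimers enter the nucleus and bind kappa-B sites in DNA. The genes they switch on include effectors such as adhesion molecules and antioxidant enzymes, and inhibitors that close the loop by acting on the same pathway. In the stem cell compartment the pathway is known for its part in emergency blood formation and in the balance between self-renewal and differentiation.

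Of the 10 genes, Tnfaip2 and Sod2 were at least 2-fold higher in the CA/CA sample, Icam1 was at least 1.5-fold higher, and none of the 8 measured genes was 1.5-fold lower. Tnfaip3 was higher by a smaller difference at a signal close to background. Birc2, Tnip1, Gadd45b and Cd40 differed little, and Birc3 and Cd83 were below the background floor on both arrays. The 8 measured genes thus did not share 1 size of difference.

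Promoter sequences are shown for the 3 genes with the largest differences and for the 2 feedback inhibitors, because the kappa-B consensus was found in both kinds. The windows come from RefSeq, build GRCm38.p6, and run from 250 bases before to 50 bases after a gene's start, 5′ to 3′ on the gene's strand. Capitals mark each match, on either strand, to the 10-base kappa-B consensus (3 G, a purine, any 2 bases, 2 pyrimidines, 2 C) or to the same decamer with any first base. Overlapping matches are joined.
Tnfaip2, chr12:111442411-111442710, plus strand: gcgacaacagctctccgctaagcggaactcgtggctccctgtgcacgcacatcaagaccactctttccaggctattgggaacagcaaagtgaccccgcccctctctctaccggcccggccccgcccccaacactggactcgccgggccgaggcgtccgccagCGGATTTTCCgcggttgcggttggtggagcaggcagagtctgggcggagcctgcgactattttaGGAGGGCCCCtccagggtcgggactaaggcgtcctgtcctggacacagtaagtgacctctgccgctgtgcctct
Sod2, chr17:13007589-13007888, plus strand: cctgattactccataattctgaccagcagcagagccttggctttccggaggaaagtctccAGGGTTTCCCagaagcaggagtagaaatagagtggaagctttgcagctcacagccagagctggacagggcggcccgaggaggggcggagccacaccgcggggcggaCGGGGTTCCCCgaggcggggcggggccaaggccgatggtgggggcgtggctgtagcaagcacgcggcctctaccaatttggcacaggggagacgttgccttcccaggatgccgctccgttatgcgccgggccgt
Tnfaip3, chr10:19015361-19015660, minus strand: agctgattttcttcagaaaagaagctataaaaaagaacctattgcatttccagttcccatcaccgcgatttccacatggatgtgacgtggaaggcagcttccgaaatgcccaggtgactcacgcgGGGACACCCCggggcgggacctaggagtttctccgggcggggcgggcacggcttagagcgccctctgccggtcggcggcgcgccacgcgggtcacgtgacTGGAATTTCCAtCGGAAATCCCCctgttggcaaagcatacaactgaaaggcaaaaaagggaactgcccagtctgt
Tnip1, chr11:54962891-54963190, minus strand: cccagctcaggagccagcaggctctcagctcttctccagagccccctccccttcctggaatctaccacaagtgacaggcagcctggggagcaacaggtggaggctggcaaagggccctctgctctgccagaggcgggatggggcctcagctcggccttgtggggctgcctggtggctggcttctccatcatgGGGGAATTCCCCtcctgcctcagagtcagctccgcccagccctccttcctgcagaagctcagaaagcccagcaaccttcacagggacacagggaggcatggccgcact
Icam1, chr9:21015690-21015989, plus strand: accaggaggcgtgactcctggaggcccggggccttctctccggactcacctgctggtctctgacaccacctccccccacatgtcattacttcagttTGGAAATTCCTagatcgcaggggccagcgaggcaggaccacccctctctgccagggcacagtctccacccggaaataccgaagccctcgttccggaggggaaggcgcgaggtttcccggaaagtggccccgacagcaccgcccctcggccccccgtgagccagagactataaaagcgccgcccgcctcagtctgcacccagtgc

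Windows were present for 8 of the 10 genes, while Cd40 and Cd83 had no entry. The strict consensus occurred in 4 of the 8, namely Tnfaip2, Sod2, Tnfaip3 and Tnip1. Among all 32851 windows, 8.46% held it, and 9.55% of 27025 genes had it in at least 1 window. In Tnip1 the match was the palindrome GGGGAATTCCCC, from 58 to 47 bases before the start. Sod2 held GGGGTTCCCC from 83 to 74 bases before the start. Tnfaip3 held GGGACACCCC and GGAAATCCCC, the latter ending 3 bases before the start. All letters are given as on the gene's strand, and GGAAATCCCC fits the consensus only when its opposite strand is read. The same holds for the Tnfaip2 match, GGAGGGCCCC, which lay from 24 to 15 bases before the start. With any first base, a form added after the windows had been seen, Icam1 (TGGAAATTCCT, from 154 to 144 bases before the start) and the upstream Birc2 window also matched, 6 of 8 genes against 29.0% of all genes. Birc3 and Gadd45b held neither form. Tnfaip2 and Sod2, which were higher in CA/CA cells, and Tnip1, with a difference of 0.06, all held the strict form. These letters are a description of the windows and do not show that NF-kB bound there.

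**Figure D1:**
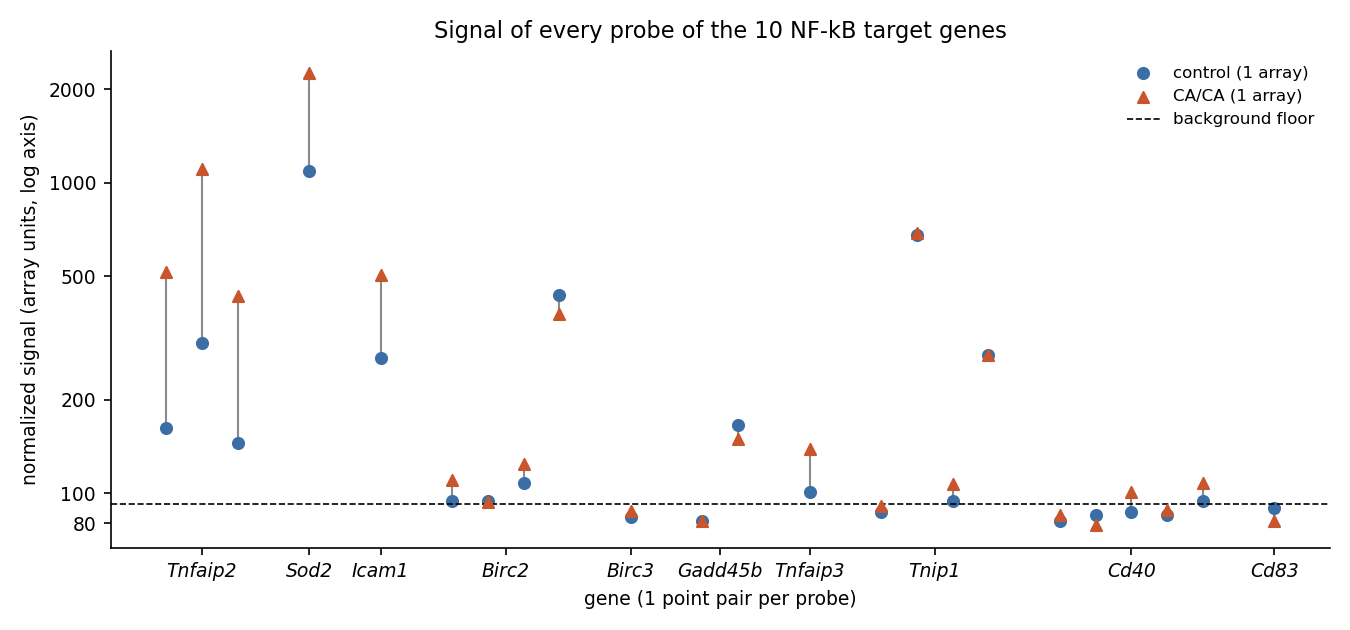
Normalized signal (log axis) of each of the 23 probes, grouped by gene, in the control (circles) and CA/CA (triangles) samples, 1 array each; the dashed line is the background floor of 92.00. All 3 Tnfaip2 probes and the probes of Sod2 and Icam1 were higher in CA/CA cells, while 7 probes stayed under the dashed line in both samples.

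The effector genes held the largest differences. Tnfaip2 encodes a protein first known as induced by tumour necrosis factor in endothelial cells. Its 3 probes had signals of 162, 305 and 145 in control cells and 516, 1110 and 433 in CA/CA cells, all above the floor of 92.00. The floor was set 4 SD above the background mode of 81.72. All 3 probes were higher in CA/CA cells, by 1.58, 1.81 and 1.48 on the log2 scale of signal plus 16, the scale of every difference below. Their mean was 1.63, a 3.08-fold difference, and 39 of the 8500 genes above the floor on both arrays had a larger positive difference. The gap between the probes was small beside the difference itself. Different probes of 1 gene had a pooled SD of 0.24 over 3861 genes. That SD measures the disagreement between probes of 1 gene, dim probes included, and says nothing of the spread between mice or sorts.

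Sod2 encodes the manganese superoxide dismutase of mitochondria, which turns superoxide into hydrogen peroxide. Its single probe had a signal of 1092 in control cells and 2251 in CA/CA cells, a difference of 1.03, and 101 genes had a larger one. This signal lay far above background. The alternatives for floor and probe choice could not move the value of a single bright probe. Under those for offset and background it stayed between 1.01 and 1.10. Icam1 encodes the adhesion molecule that binds leukocyte integrins. Its single probe was at 273 in control cells and 505 in CA/CA cells, a difference of 0.85, short of the 2-fold line. After normexp background correction it was 1.06 and crossed that line.

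The feedback inhibitors were Tnfaip3, measured near background, and Tnip1, measured well above it. Tnfaip3 encodes A20, a ubiquitin-editing enzyme that shuts down signalling from tumour necrosis factor and Toll-like receptors. Its single probe was at 101 in control cells and 138 in CA/CA cells, a difference of 0.40, and 834 genes had a larger one. Because the control signal stood only 19.26 units above the background mode, the value depended on how background was handled. It was 0.92 after normexp correction and 1.56 after plain subtraction of the mode. Whether A20 transcript was higher in CA/CA cells by less or more than 2-fold is therefore not settled by this probe.

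Tnip1 encodes ABIN1, a ubiquitin-binding partner that brings A20 to its targets. Its brightest probe was at 679 in control cells and 686 in CA/CA cells, and the next at 278 and 279. These probes lay well above the floor and differed by 0.01 each. A dim probe was at 94.24 and 107, and the fourth was below the floor on both arrays. The gene difference over the 3 probes above the floor was 0.06.

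Survival and stress genes had small differences or lay below the floor. Birc2 and Birc3 encode the cellular inhibitors of apoptosis cIAP1 and cIAP2, ubiquitin ligases that act at the tumour necrosis factor receptor and restrain the non-canonical NF-kB kinase encoded by Map3k14. The brightest of the 4 Birc2 probes was at 435 in control cells and 376 in CA/CA cells, a difference of -0.20. The other 3 were dim, at 94.56, 94.23 and 108 in control cells and at 110, 93.76 and 124 in CA/CA cells, with differences of 0.19, -0.01 and 0.18. The gene mean of 0.04 thus averaged probes of either sign, and its sign was negative when the brightest probe alone was used. The only Birc3 probe had signals of 83.69 and 87.44, below the floor in both samples, so no difference is given. Birc3 is the paralogue of the pair usually named as NF-kB-induced, and its probe did not pass the floor here.

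Gadd45b encodes a stress sensor that restrains JNK signalling downstream of NF-kB. One of its 2 probes was above the floor, at 166 in control cells and 149 in CA/CA cells, a difference of -0.14. The other was at 81.52 and 81.02. Gadd45b was the 1 measured member with a negative difference. Both of its probes read lower in CA/CA cells, so a sign kept under all 9 alternatives for scale, floor and probes adds no support. The difference of -0.14 was smaller than the pooled SD of 0.24 between probes of 1 gene, which measures no spread between samples.

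The receptor genes were at or below the edge of detection. Cd40 encodes the co-stimulatory receptor of B cells, dendritic cells and macrophages. Of its 5 probes, 1 was above the floor on both arrays, at 94.01 in control cells and 108 in CA/CA cells. A second was at 86.61, below the floor, in control cells and at 101 in CA/CA cells. Both of these were annotated to the same transcript, and the difference over them was 0.18. The direction of the second was fixed by its passing the floor in CA/CA only. The other 3 probes were below the floor in both samples, 2 of them higher and 1 lower in CA/CA cells. Among those 3 was another probe of the same transcript, at 84.79 in control cells and 88.44 in CA/CA cells. Cd83, a marker of activated dendritic cells and lymphocytes, had 1 probe, at 89.37 and 81.17, below the floor in both samples.

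**Figure D2:**
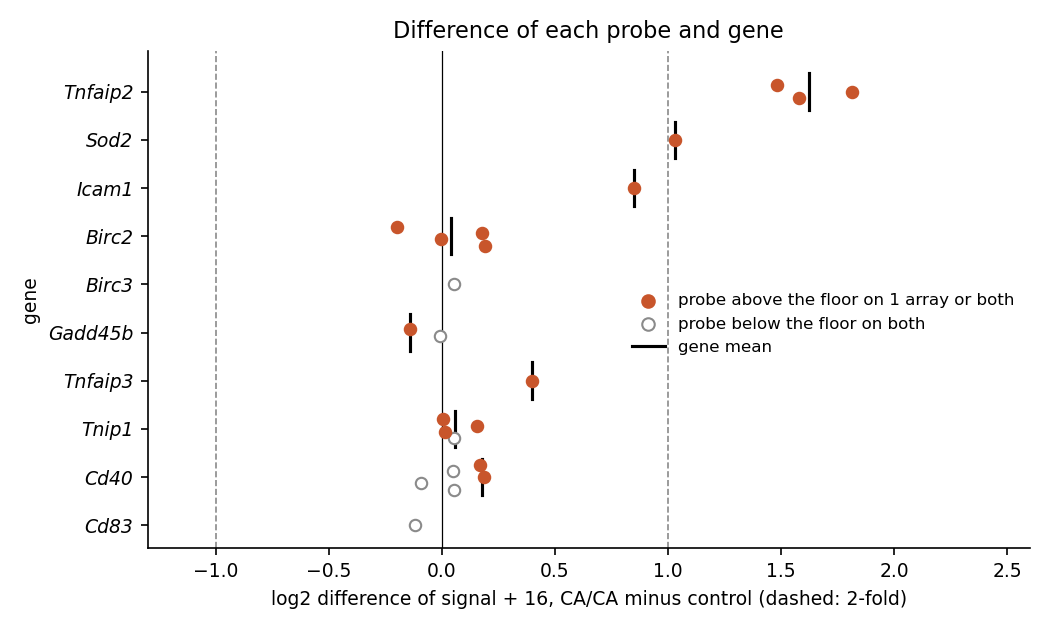
Log2 difference of signal plus 16, CA/CA minus control, of each probe (points; open where below the floor on both arrays) and the mean of each gene over its probes above the floor (bars), with dashed lines at 2-fold. Gene means ran from -0.14 for Gadd45b to 1.63 for Tnfaip2, and the 4 Birc2 probes lay on both sides of 0.

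Of the 23 probes, 15 were above the floor on both arrays, 1 in CA/CA only, 0 in the control only and 7 on neither. Among the 16 above it on at least 1 array, 13 were higher and 3 lower in CA/CA cells. The 13 include the Cd40 probe that passed the floor in CA/CA only, which fixes its direction. These counts take in several probes of the same gene and differences as small as 0.01 in Tnip1. The share of all probes that were higher was not counted. Counted by gene, 2 of the 8 measured members, Tnfaip2 and Sod2, passed 2-fold upward and 0 passed it downward. The background was 8500 genes measured on both arrays, of which 1.31% passed 2-fold upward and 1.87% passed it downward. At 1.5-fold the members numbered 3 higher and 0 lower, against 4.35% and 6.31% of all genes. The median difference was 0.29 over the 8 members and 0.01 over all genes. Above 0 were 7 of the 8 members and 51.3% of all genes. The members were chosen with earlier results of these arrays known, so these counts describe them and test nothing. Fewer cells of a type and less RNA per cell cannot be told apart in such bulk samples.

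**Figure D3:**
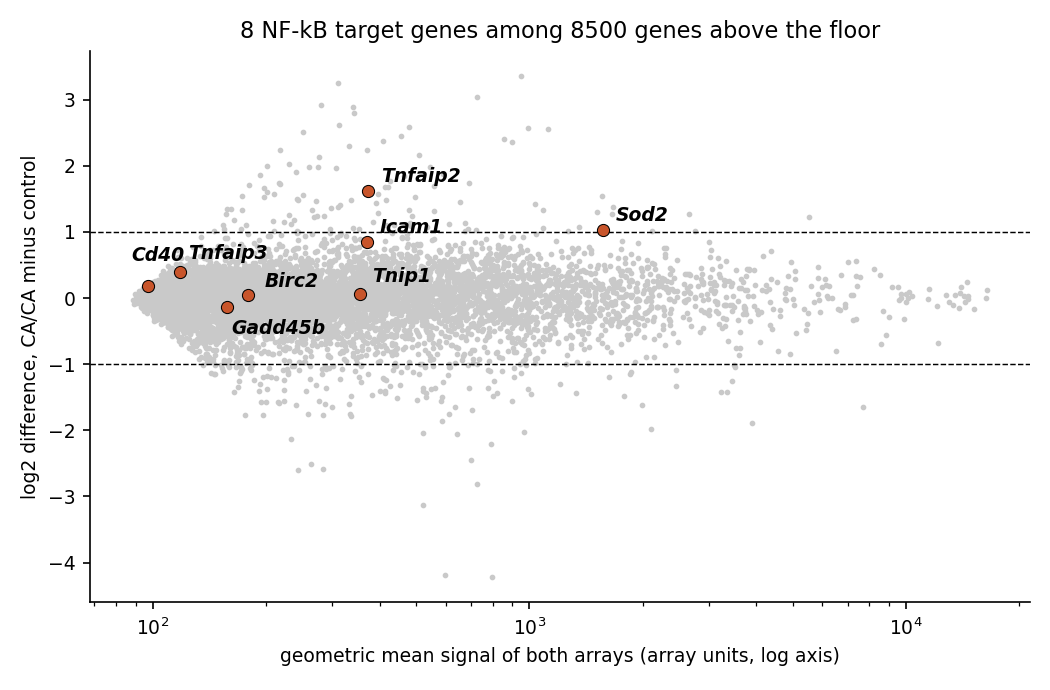
Log2 difference, CA/CA minus control, against the geometric mean signal of both arrays (log axis) for 8500 genes above the floor on both (grey) and the 8 measured members (orange), with dashed lines at 2-fold. Tnfaip2 and Sod2 lay above the upper line, Icam1 just under it at 0.85, and Cd40 and Tnfaip3 at the dim end.

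The genes that carry the signal to these targets were read from lists of pathway members. Relb and Nfkb2 encode the subunits of the non-canonical dimer, and Nfkbia the inhibitor that NF-kB itself induces. Relb was at 105 in control cells and 258 in CA/CA cells, a difference of 1.18, the 1 gene at least 2-fold higher among 9 measured subunit and inhibitor genes. Nfkbia differed by 0.92, but its probes by 0.20 and 1.64. Nfkb2 was at 92.07 and 124, Nfkbie at 143 and 187, and Bcl3 at 144 and 190. Rela, the main activating subunit, was at 974 and 840. Of the 9 genes, 6 were above 0 and 3 below, with a median of 0.37, or 0.65 after normexp correction and 0.96 after plain subtraction.

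Upstream of the subunits the differences were of either sign. None passed 2-fold on the scale used, which understates differences of dim genes such as Map3k14. Map3k14 (-0.66) and the ligand gene Ltb (-0.62) were more than 1.5-fold lower in CA/CA cells. For Ikbkb, the gene of IKK2, 1 of 3 probes passed the floor and read 205 in each sample. Whether any of these probes reads the transgene is not known from the labels, so they do not check the genotype. The list of the IKK complex and its upstream kinases had 5 of 10 measured genes above 0, none beyond 2-fold and a median of -0.01. Its largest differences were those of Map3k14, the non-canonical kinase, at 179 in control cells and 107 in CA/CA cells (-0.66), and of Tab2, an adaptor of the kinase TAK1, at 654 and 453 (-0.52). Tumour necrosis factor ligands, receptors and adaptors had 6 of 12 above 0 and none beyond 2-fold, with a median of -0.01. There, Ltb, the membrane-bound lymphotoxin, was at 425 and 272, and Tnfrsf1a, the main receptor of tumour necrosis factor, at 213 and 155, with all 3 probes lower. Genes for ubiquitin partners of A20 had a median of -0.02 over 9 measured members, 4 of them above 0 and none beyond 2-fold. Rbck1 and Rnf31, which encode HOIL-1 and HOIP of the linear ubiquitin ligase, differed by 0.59 and 0.33.

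Other textbook NF-kB targets included genes higher in CA/CA cells and many that were not detected. Of 24 listed genes, 23 were named on the array and 13 were measured, with a median of 0.41 that was 0.08 with the floor at 2 SD and 0.02 with no floor. Of the 10 above the floor on both arrays 6 were above 0 and 4 below, while 2 others passed it in CA/CA only and 1 in the control only. Lcn2, an iron-siderophore binder, was at 305 in control cells and 1020 in CA/CA cells, a difference of 1.69, and was the 1 gene above the floor on both arrays with a difference beyond 2-fold. Cxcl10, which encodes a chemokine under joint NF-kB and interferon control, passed the floor in CA/CA cells only, at 1 of its 2 probes. That probe was at least 3.28-fold higher there, and the other was below the floor in both samples. Below the floor on both arrays were 10 genes, among them Il6, Il1b, Ptgs2, Cxcl1, Cxcl2 and Ccl2, which encode inflammatory mediators of activated myeloid and stromal cells. Irf1, an interferon regulatory factor, was at 554 and 1066, a difference of 0.90 with its 5 probes between 0.65 and 1.14, and the chemokine gene Ccl5 differed by 0.68. Vcam1, the endothelial and stromal adhesion molecule often named beside Icam1, was at 345 and 338 at the 1 of its 4 probes above the floor. Ier3, an early-response survival gene, was at 707 and 574.

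**Figure D4:**
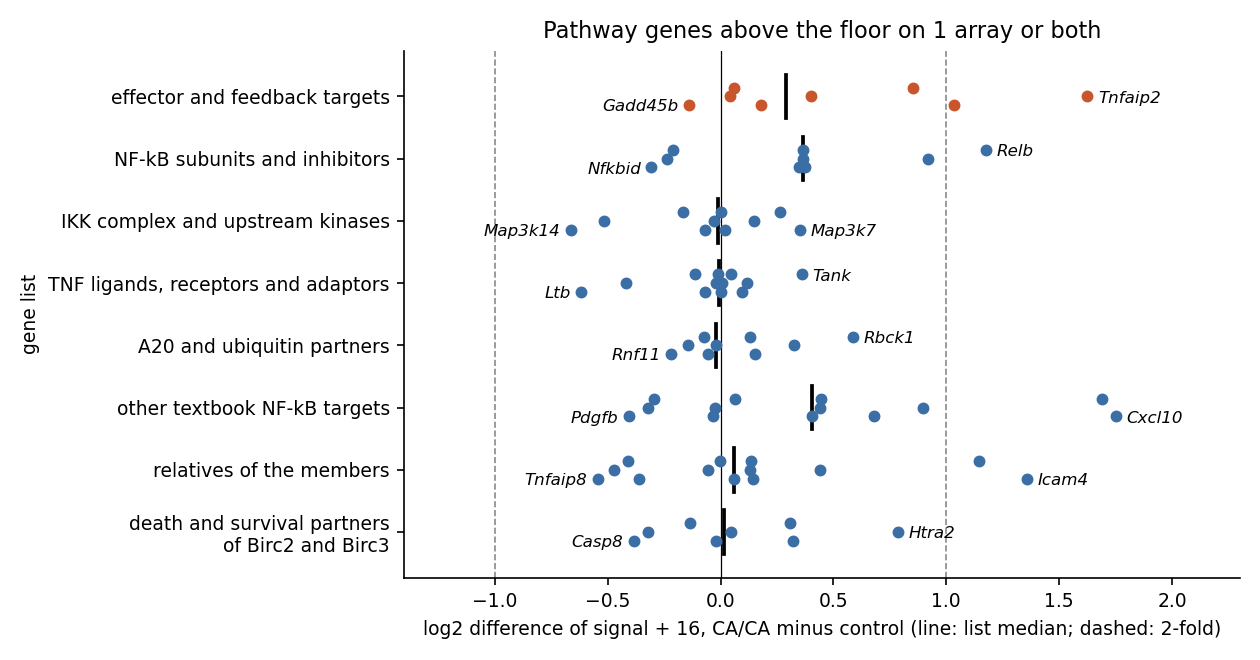
Log2 difference of signal plus 16, CA/CA minus control, of each gene above the floor on at least 1 array (points) in the measured members and 7 pathway lists, with list medians (bars) and dashed lines at 2-fold; the lowest and highest gene of each list are named. Medians were 0.29 for the members, 0.37 for subunits and inhibitors and 0.41 for other targets (0.02 with no floor), and within 0.06 of 0 for the remaining lists.

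Close relatives of the members differed from them in places in size and sign. Gadd45g was at 140 in control cells and 357 in CA/CA cells, a difference of 1.14, and Gadd45a at 217 and 303, whereas Gadd45b was slightly lower. Icam4, the red cell member of the Icam family, was at 181 and 489, a difference of 1.36, and Icam2, found on endothelium and leukocytes, was at 932 and 721. Sod1, the cytosolic superoxide dismutase, differed by 0.14, its 2 measured probes by -0.07 and 0.36. Tnfaip8, named like Tnfaip2 and Tnfaip3 for its induction and not for its structure, was lower, at 768 and 522. Past 2-fold upward were 2 of 13 measured relatives, past it downward 0, and their median was 0.06. Genes that act with the cIAP proteins in cell death had a median of 0.01 over 8 measured, none beyond 2-fold. Htra2, a mitochondrial protease that cuts IAP proteins, was at 456 and 813, a difference of 0.79, and Casp8, the initiator caspase, was at 667 and 507. Tnip2, Gadd45a, Cflar and Traf2 each stand in 2 of the lists.

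The cell make-up that the 2 samples could hold differed by marker genes. Kit, which defines the gate, was at 970 in control cells and 677 in CA/CA cells, but its 2 measured probes differed by -0.58 and 0.21. Of the 5 measured LSK and stem cell markers 4 were below 0, with a median of -0.26 and sums of 1602 and 1122, and 1 of the 4, Slamf1, passed the floor in the control only. Cd34 was at 287 and 153, a difference of -0.84, and Tek, a receptor of stem cells and endothelium, at 134 and 100.2. Flt3 was below the floor in both samples, and Ly6a, the gene of Sca1, had no probe named by the annotation. Of 8 erythroid markers, all measured, 7 were at least 2-fold higher in CA/CA cells, with summed signals of 3548 in control cells and 12233 in CA/CA cells. The 4 measured B lineage markers were all lower, with sums of 6568 and 759, and all 4 passed the floor on both arrays. Of 6 measured endothelial and stromal markers, with sums of 1784 and 549, 5 passed it in the control only, which fixes their direction. These 5 included Emcn, Esam and Robo4, shared by endothelium and stem cells. The other, Pecam1, was at 191 and 125. Neutrophil markers were lower on balance, 6 of 8 below 0, with sums of 48665 and 24077. Dendritic cell markers were mostly undetected, 5 of 7 below the floor in both samples, and the 2 others passed it in CA/CA only. The 5 measured macrophage and monocyte markers had sums of 1369 and 1189, a difference carried by Lyz2, at 934 and 737. Of the 5, 2 were above 0 and 3 below. Adgre1 passed the floor in the control only and Fcgr1 in CA/CA only. The 6 measured T and NK markers had sums of 4734 and 1716, a difference carried by Nkg7, a cytotoxic granule gene, at 4190 and 1055. The other 5 had sums of 544 and 660, and 2 of them passed the floor in CA/CA only. Of 6 measured megakaryocyte markers, with sums of 972 and 627, the 4 above the floor on both arrays were below 0 and the other 2 passed it in the control only. These sums include the background of each probe. The part of these shifts in the values of Tnfaip2, Sod2, Icam1 and Icam4 was not tested.

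For each of the 8 measured members, plain background subtraction was the alternative that moved the value most. Tnfaip2 ran from 1.48 to 2.38 over the 9 alternatives and Icam1 from 0.78 to 1.15. Cd40, near the floor, ran from 0.07 to 0.98. That subtraction, which enlarges differences of dim genes, put 4 members at least 2-fold higher, namely Tnfaip2, Sod2, Icam1 and Tnfaip3, while 6.18% of all genes were then at least 2-fold higher.

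**Figure D5:**
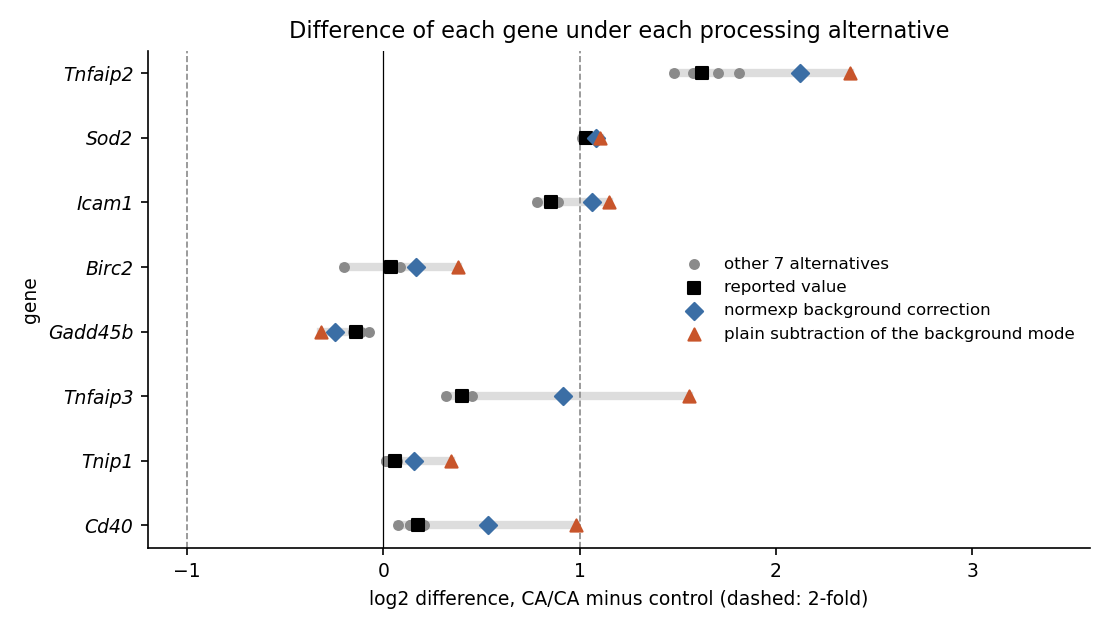
Log2 difference, CA/CA minus control, of each measured member as reported (squares), after normexp correction (diamonds), after plain background subtraction (triangles) and under the other 7 alternatives (grey points), with dashed lines at 2-fold. Sod2 stayed between 1.01 and 1.10, while Tnfaip3 ran from 0.32 to 1.56.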

How the data were processed

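Total RNA of 1 control and 1 CA/CA sample was amplified, biotin-labelled and hybridised to Illumina bead arrays, per the labels' protocols. The submitters' processing notes name BeadStudio, without a version or settings. The authors' deposited values are linear normalized intensity values of 45281 probes, from 71.85 to 17159, with a median of 86.15 on both arrays and sorted columns within 0.0022 on the log2 scale. Background had not been subtracted. A table of non-normalized signals was not used, because its 4 value columns carry headings that match no sample label.

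Probes were named by the platform annotation, of which 34885 had 1 symbol, 18 several and 10378 none. Background was centred at 81.72, the midpoint of the narrowest range covering 25% of the signals, with an SD of 2.57 among lower signals. The floor of 92.00 lay 4 SD above it. Probes of a gene above the floor on at least 1 array were averaged as differences of log2 of signal plus 16, so differences of dim genes are understated. Of 10118 genes above the floor, 8500 were so on both arrays. An at-least fold is the bright signal plus 16 over the higher of 92.00 and the dim signal, plus 16. Genes named from the pathway lists were those at least 2-fold different or else the 2 largest, and others that were named to complete a list were chosen after their values were seen. The members and lists were chosen with earlier results of these data known. A comparison of member proteins had been planned and was not run. The steps were tested on simulated data. Only bright genes were changed there, by more than 2-fold, so that test does not cover dim genes or differences near 2-fold. Python 3.11.15, numpy 2.4.6, pandas 2.3.3, matplotlib 3.10.9, R 4.3.3 and limma 3.58.1 (normexp) were used. The number of arrays limits the precision.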

Additional observations from a re-analysis of the deposited data

How the results depend on the processing

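The count of members at least 2-fold higher was 2 as reported. It was 4 after plain background subtraction and 1, Tnfaip2, at a 3-fold threshold. It was 3 after normexp correction and at 1.5-fold, and 2 with no offset or an offset of 50. It was also 2 with floors at 2 or 8 SD, no floor, the brightest probe or the median probe difference. The floor settings could not change the values of Tnfaip2 and Sod2, whose probes all lay above each floor. Choice of probe could not change that of Sod2, which has a single probe. At a floor of 8 SD, 6 members were measured on both arrays. No member was 2-fold lower under any of the 11 alternatives. Of all genes, 111 were at least 2-fold higher and 159 lower. These counts were 231 and 398 after normexp correction, 525 and 690 after subtraction, 370 and 536 at 1.5-fold, and 41 and 31 at 3-fold. The median over the subunit and inhibitor list ran from 0.29 to 0.96 and that of other targets from 0.02 to 0.45. Subtraction raises the differences of dim genes by construction. No paired analysis was possible because each genotype had 1 sample, and no replicate could be left out.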
